A study of Mus musculus with 2 samples.

Results

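TGF-β ligands, their receptors, the proteins that hold the ligands latent and a pair of genes induced by the pathway were examined in the optic nerve of *Tcf7l2* mutant mice. The group was given as a list of 10 gene symbols, and rows carrying these symbols were taken from both deposited expression tables. All 10 were found once in each table, out of 23951 gene symbols present in both. RNA-sequencing (RNA-seq) had been carried out on whole optic nerves at P12, with 1 library from control mice and 1 library from mutant mice. Control mice carried a floxed *Tcf7l2* allele on 1 chromosome together with the Olig1-Cre driver (genotype Tcf7l2 c/+; OLig1-cre), so that they too had Cre and a recombined allele. Mutant mice had 2 floxed alleles and the same driver (Tcf7l2 c/c; OLig1-cre). In these mice, named *Tcf7l2*ΔHMG in the study, recombination in the oligodendrocyte (OL) lineage removes in frame the exon for the DNA-binding HMG box. Cells of the nerve outside that lineage were sequenced with it, and which cells of the nerve had recombined was not examined here. The number of animals behind each library is not given in the sources used here. Since each genotype has 1 library, the spread between animals is unknown and no test between genotypes was possible. Each difference below therefore compares 2 libraries, and for whole tissue a lower level in each cell and a smaller number of expressing cells cannot be told apart.

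The 3 TGF-β isoforms, encoded by *Tgfb1*, *Tgfb2* and *Tgfb3*, are secreted as inactive complexes with their own propeptide. Latent TGF-β-binding proteins, among them those encoded by *Ltbp1* and *Ltbp3*, tether these complexes to the extracellular matrix, from which integrins, thrombospondin and proteases release the active ligand. The ligand binds the type II receptor (*Tgfbr2*), which activates the type I receptor (*Tgfbr1*), while betaglycan (*Tgfbr3*) is a co-receptor that presents ligand. The type I receptor phosphorylates Smad2 and Smad3, which join Smad4 and enter the nucleus. *Smad7*, an inhibitory Smad, is induced in feedback, and *Tgfbi* encodes a secreted matrix protein induced by TGF-β. In nervous tissue the pathway is known for its actions on microglia, reactive astrocytes, vessels and meningeal cells.

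Values are given as FPKM, the number of fragments scaled to transcript length and to the mapped fragments of the library, with the interval that the Cufflinks software gave for each value. These intervals cover the counting of fragments within a library only. The depth, read from interval bounds of short rows, came to 27623500 control fragments and 39937500 mutant fragments, a ratio of 1.45, so that the mutant values have the narrower intervals. A count of 3 fragments over 1 kb of transcript would give 0.11 and 0.075 FPKM, far below every value of the 10 genes. *Tcf7l2* itself was measured at 17.8 FPKM in the control (interval 16.7 to 18.9) and 14.6 FPKM in the mutant (13.9 to 15.4). A value for the whole gene does not show whether the HMG exon is missing, so it does not check the labels. The labelled tissue was checked on OL markers, and the 6 listed genes summed to 30308.6 FPKM in control and 17460.9 FPKM in mutant nerve.

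The promoters are shown for the most abundant ligand gene, *Tgfb2*, and for *Tgfb1* and *Ltbp3*, a pair of the genes whose FPKM differed most between the libraries. Each sequence is the 250 bases upstream of the transcription start, 5′ to 3′ on the strand of the gene, from RefSeq on GRCm38.p6. Capitals mark the letters CAGAC, read on both strands, the core of the Smad-binding element. The windows lie at chr7:25686752-25687001 on the plus strand for *Tgfb1*, chr1:186705990-186706239 on the minus strand for *Tgfb2* and chr19:5740650-5740899 on the plus strand for *Ltbp3*.
Tgfb1: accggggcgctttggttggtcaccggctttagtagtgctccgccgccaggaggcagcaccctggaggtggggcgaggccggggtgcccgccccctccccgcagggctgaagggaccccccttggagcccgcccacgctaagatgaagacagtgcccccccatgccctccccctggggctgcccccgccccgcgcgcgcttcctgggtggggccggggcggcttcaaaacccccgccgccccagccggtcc
Tgfb2: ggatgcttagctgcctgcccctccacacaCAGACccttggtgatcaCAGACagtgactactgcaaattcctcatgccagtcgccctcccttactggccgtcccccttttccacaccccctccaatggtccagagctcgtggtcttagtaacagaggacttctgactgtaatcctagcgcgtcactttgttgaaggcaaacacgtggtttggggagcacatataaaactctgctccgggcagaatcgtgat
Ltbp3: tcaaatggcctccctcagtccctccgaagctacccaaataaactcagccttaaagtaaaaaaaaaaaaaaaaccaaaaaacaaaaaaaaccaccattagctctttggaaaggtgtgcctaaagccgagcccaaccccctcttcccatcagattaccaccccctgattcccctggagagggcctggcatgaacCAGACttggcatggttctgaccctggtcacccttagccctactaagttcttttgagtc
G and C made up 75.2% of the *Tgfb1* window, 53.6% of that of *Tgfb2* and 47.2% of that of *Ltbp3*. The letters CAGAC occurred 2 times in the *Tgfb2* window, 1 time in that of *Ltbp3* and not in that of *Tgfb1*. Promoters of 7 of the 10 genes were found, 9 windows in all, with none for *Tgfb3*, *Tgfbr3* and *Smad7*. The letters CAGAC were in 7 of the 9 windows, from 6 of the 7 genes, compared with 42.2% of 32851 promoters of the same length. Windows of the same gene are not independent, and no enrichment is read from these counts. The letters CTTTGAT or CTTTGAA, 2 forms of the site bound by TCF/LEF factors such as Tcf7l2, were in none of the 9 windows and in 7.48% of all promoters. The Smad palindrome GTCTAGAC, which does not contain the letters CAGAC, was in none of the 9 and in 0.167% of all. These matches describe letters in a short window and not binding, which was not analysed here.

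Of the 10 genes, 7 were higher in the *Tcf7l2*ΔHMG library by FPKM and 3 were lower. A fold change above 1.5, the size the study used, was reached by 3 genes, *Tgfbr3*, *Tgfb1* and *Ltbp3*, all higher in the mutant, and by no gene in the other direction. Across all 14199 genes with at least 1 FPKM in at least 1 library, 15.4% were higher by that much and 8.52% lower, and nothing particular to the 10 genes is read from counts of 3 and 0. Median log2 ratios, computed as mutant over control after 0.1 FPKM was added to each, were 0.30 for the 10 genes and 0.047 for all genes tested. Control and mutant intervals were apart for 8 of the 10 genes, compared with 52.4% of all genes tested. That share is not matched for FPKM, which affects interval width, and nothing particular to the 10 genes is read from it. These 8 were all 7 genes that were higher and, of those that were lower, *Tgfbr1*. For each of the 10 genes, the FPKM lay inside its own interval in both libraries, which was not the case for 7.3% of named control rows and 8.6% of named mutant rows. These directions were set by FPKM as deposited. After all rows of each table, unnamed ones included, were rescaled to a common sum, the median of all genes tested moved to −0.61 and only *Tgfbr3*, *Tgfb1* and *Ltbp3* were above 0. None of the 3 then passed the fold change. The count became 0 of the 10 genes higher and 3 lower, beside 4.51% and 52.1% of all genes tested.

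**Figure D1:**
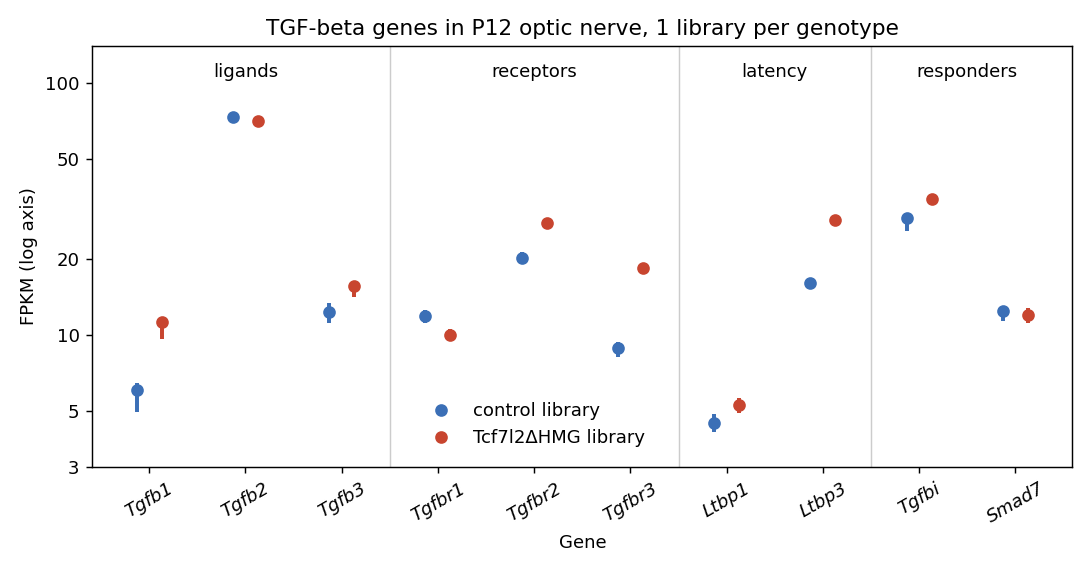
FPKM (log axis) of the 10 genes in the control library (blue) and the Tcf7l2ΔHMG library (red), grouped by role. Points are the deposited values and vertical bars the Cufflinks intervals, which are hidden by the points where narrow. Tgfb2 is highest in both libraries (72.9 and 70.7 FPKM), and Tgfbr3, Tgfb1 and Ltbp3 lie furthest apart.

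The *Tgfb2* level stood far above those of the other ligand genes in both libraries. On FPKM as deposited, *Tgfb1* differed most of the ligand genes between the libraries, and on the scale of all rows it differed least. *Tgfb2* (mm9 chromosome 1, 188446676 to 188529871 in the control table) was the most abundant of the 10 genes, with 72.9 FPKM in the control (71.6 to 75.7) and 70.7 FPKM in the mutant (70.1 to 73.2). These values overlap, and the log2 ratio was −0.04, with −0.11 to 0.03 as the range that the bounds of both intervals allow. On the scale of all rows it was −0.71, past the fold change, where the median of all genes tested was −0.61. With 92.5% of all genes tested below it in the control, *Tgfb2* was among the strongly expressed genes of the nerve. *Tgfb3* (chromosome 12, 87397693 to 87419991) was at 12.3 FPKM in the control (11.2 to 13.4) and 15.6 FPKM in the mutant (14.1 to 15.9). Its log2 ratio was 0.34 (0.08 to 0.51 from the bounds), and it was below 0 (−0.32) on the scale of all rows. *Tgfb1* (chromosome 7, 26472021 to 26490015) was the least abundant ligand gene in both, at 6.07 FPKM (4.98 to 6.45) and 11.3 FPKM (9.67 to 11.8). Here the intervals were well apart, and the mutant value was 1.85 times the control value, a log2 ratio of 0.89 (0.58 to 1.23), which became 0.22, below the fold change, on the scale of all rows. Of the 1420 genes in the same decile of mean FPKM, 95.2% had a lower log2 ratio than *Tgfb1*. *Tgfb1* and *Tgfbr3* are singled out by the study from these same libraries, so that their values are no independent support for it. The neighbouring gene *B9d2*, whose row ends 443 bases away from that of *Tgfb1*, was at 7.95 FPKM in control and 8.61 FPKM in mutant nerve, with overlapping intervals.

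Among the receptor genes, the co-receptor showed the largest difference on FPKM as deposited, and the type I receptor lay on the other side. On the scale of all rows, *Tgfbr1* differed most and *Tgfbr2* lay on the same side as *Tgfbr1*. *Tgfbr3* (chromosome 5, 107535589 to 107718614) was at 8.89 FPKM in the control (8.22 to 9.43) and 18.4 FPKM in the mutant (17.4 to 18.8). The mutant value was 2.06 times the control value, a log2 ratio of 1.04 (0.87 to 1.18), the highest of the 10 genes. It was 0.38, below the fold change, on the scale of all rows. Of the 1419 genes in its decile of mean FPKM, 96.3% had a lower log2 ratio on FPKM as deposited. *Tgfbr2* (chromosome 9, 115996813 to 116084481) was at 20.3 FPKM (19.2 to 21.4) and 27.7 FPKM (26.9 to 28.9). Its intervals did not overlap, but at 0.44 (0.33 to 0.59) its log2 ratio stayed below the fold change of 1.5, which is 0.58 on this scale, and it was −0.22 on the scale of all rows. *Tgfbr1* (chromosome 4, 47366109 to 47427796 in the control table) was at 11.9 FPKM in the control (11.2 to 12.6) and 10 FPKM in the mutant (9.49 to 10.6). It was the only one of the 10 genes with a lower mutant value and intervals apart, with a log2 ratio of −0.25 (−0.41 to −0.08) that became −0.90 on the scale of all rows, and 21.0% of the genes in its decile had a lower one. In the mutant table only, an unnamed row of 191 bases with 10.5 FPKM lay inside the *Tgfbr1* locus, and its part in the lower *Tgfbr1* value was not tested.

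**Figure D2:**
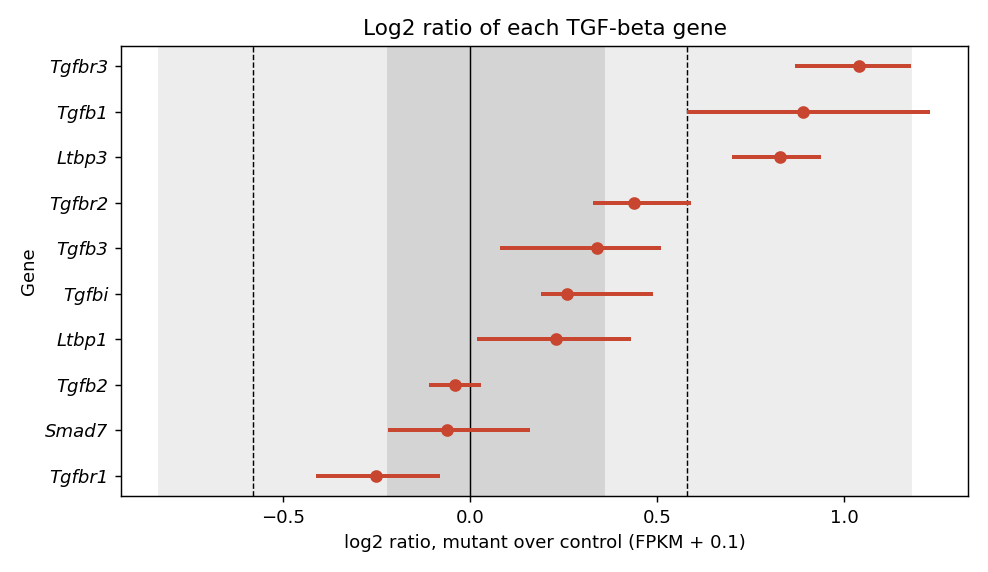
Log2 ratio of mutant to control FPKM (0.1 added) for each gene, on FPKM as deposited. Bars span what the Cufflinks bounds of both libraries allow, dashed lines mark a fold change of 1.5, and grey bands hold 50% and 90% of all genes tested (dark band −0.22 to 0.36, light band −0.83 to 1.18). Tgfbr3, Tgfb1 and Ltbp3 lie beyond the upper dashed line and inside the light band. On the scale of all rows, only these 3 stay above 0.

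Both latent TGF-β-binding protein genes had higher values in the mutant on FPKM as deposited, *Ltbp3* by more. *Ltbp3* (chromosome 19, 5740904 to 5758532) was at 16.1 FPKM in the control (15.3 to 16.9) and 28.6 FPKM in the mutant (27.5 to 29.4). This is 1.77 times the control value, a log2 ratio of 0.83 (0.70 to 0.94), or 0.16 and below the fold change on the scale of all rows. On FPKM as deposited, 94.4% of the genes in its decile had a lower one. *Ltbp1* (chromosome 17, 75404869 to 75792307), the least abundant of the 10 genes and the only one with 2 groups of start sites in the tables, was at 4.49 FPKM (4.13 to 4.86) and 5.27 FPKM (4.92 to 5.61). These intervals were only just apart, and the log2 ratio was 0.23 (0.02 to 0.43), or −0.43 on the scale of all rows.

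*Tgfbi* and *Smad7*, both induced by TGF-β, did not pass the fold change on FPKM as deposited. *Tgfbi* (chromosome 13, 56710964 to 56740700 in the control table) was at 29.0 FPKM in the control (25.8 to 29.1) and 34.6 FPKM in the mutant (33.2 to 36.3), a log2 ratio of 0.26 (0.19 to 0.49) and of −0.41 on the scale of all rows. The row of *Tgfbi* started 1391 bases earlier in the mutant table than in the control table, so that the 2 values do not rest on quite the same gene model. *Smad7* (chromosome 18, 75527019 to 75555588) was at 12.5 FPKM in the control (11.4 to 13.1) and 12 FPKM in the mutant (11.2 to 12.8). These intervals overlap, with a log2 ratio of −0.06 (−0.22 to 0.16), but on the scale of all rows it was −0.72, past the fold change. Whether *Smad7* passed the fold change thus depended on the scale. On the scale of all rows the median of all genes tested was −0.61, and 52.1% of them were lower by the fold change. Limits of the rows of *Tgfb2* and *Tgfbr1* moved by 156 bases or fewer between the tables, and those of the remaining 7 genes were the same.

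The order of the levels was compared within each library, where FPKM allows genes to be set side by side. In the control, *Tgfb2* was followed by *Tgfbi*, *Tgfbr2*, *Ltbp3*, *Smad7*, *Tgfb3*, *Tgfbr1*, *Tgfbr3*, *Tgfb1* and *Ltbp1*. *Smad7*, *Tgfb3* and *Tgfbr1* could not be ranked, since the interval of each overlapped the next. In the mutant, *Tgfb2* and *Tgfbi* again came first and *Ltbp1* last, but *Tgfbr3* moved from rank 8 to rank 5. *Tgfbr1* moved from rank 7 to rank 9, although its interval overlapped that of *Tgfb1* at rank 8. *Ltbp3* and *Tgfbr2*, at ranks 3 and 4 in the mutant, also had overlapping intervals.

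Ratios between genes of the same library do not depend on how the 2 libraries are scaled. The *Tgfb2* level was 12 times that of *Tgfb1* in the control (11.1 to 15.2 from the bounds) and 6.24 times in the mutant (5.93 to 7.57). *Tgfb1* thus made up 6.66% of the summed ligand FPKM in control and 11.6% in mutant nerve, while *Tgfb2* made up 79.9% and 72.4%. The sum of all 3 ligand genes was 91.2 FPKM in control and 97.7 FPKM in mutant nerve. For the signalling receptors, *Tgfbr2* was 1.70 times *Tgfbr1* in the control (1.52 to 1.91) and 2.76 times in the mutant (2.55 to 3.04). *Tgfbr3* was below *Tgfbr1* in the control, at 0.746 of its level (0.652 to 0.841), and above it in the mutant, at 1.84 times its level (1.64 to 1.98). Its share of the summed receptor FPKM was 21.6% in control and 32.8% in mutant nerve, whereas *Tgfbr1* had 29.0% and 17.9%. *Ltbp3* was 3.59 times *Ltbp1* in the control (3.15 to 4.10) and 5.44 times in the mutant (4.89 to 5.97). The bounds were apart between the libraries for each of these 4 ratios, without a measure of how they vary between animals. For single genes, intervals were apart for 52.4% of all genes tested. The share among pairs of other genes is not given here, so nothing particular to these ratios is read from it.

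**Figure D3:**
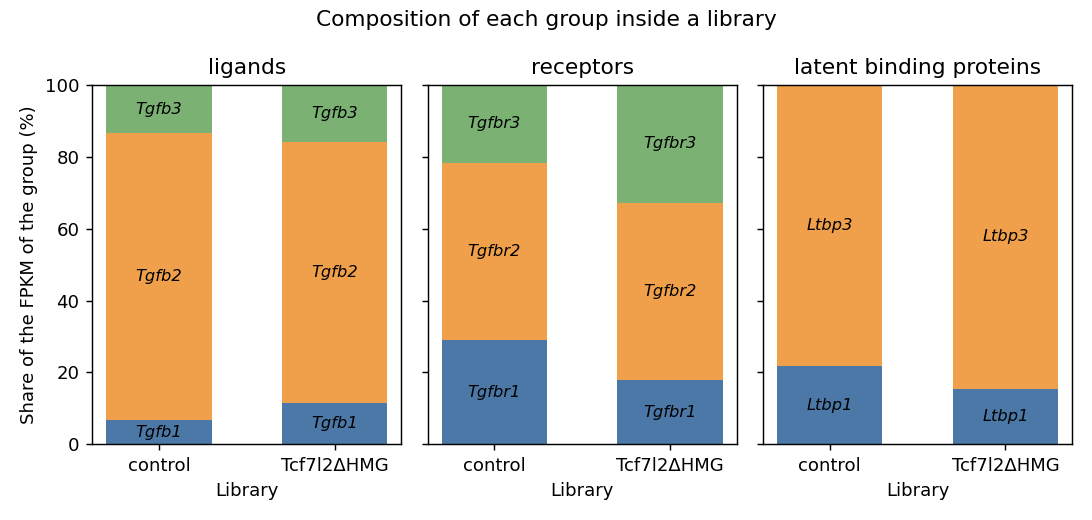
Share of the summed FPKM (in %) that each gene took of its group in the control and the Tcf7l2ΔHMG library, for the 3 ligand genes, the 3 receptor genes and the 2 genes of latent binding proteins. Bars sum to 100% within a library, so the scale between libraries has no effect. Tgfb1 has 6.66% and 11.6% of the ligand FPKM, and Tgfbr3 21.6% and 32.8% of the receptor FPKM.

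A list of 65 further genes of the pathway was examined by role, of which 62 passed the minimum of 1 FPKM. Of these, 16 were higher in the mutant by a fold change above 1.5 and 3 were lower, or 25.8% and 4.84%, beside 15.4% and 8.52% of all genes tested. Their median log2 ratio was 0.34. On the scale of all rows it was −0.32, and 2 genes were higher and 15 lower. These are 3.23% and 24.2%, beside 4.51% and 52.1% of all genes tested on that scale. Of the 13 genes tested for latency and activation, 5 were higher by the fold change and 1 lower on FPKM as deposited. These are 38.5% and 7.69%, beside 15.4% and 8.52% of all genes tested, and the median log2 ratio was 0.52. On the scale of all rows, 1 was higher and 3 were lower, with a median of −0.16, beside 4.51% and 52.1% of all genes tested. *Thbs1*, which encodes the activator thrombospondin-1, was at 4.58 FPKM in control and 15.8 FPKM in mutant nerve (log2 ratio 1.76). *Mmp2*, a matrix metalloproteinase gene, was at 32.0 and 73.8 FPKM (log2 ratio 1.20). The latent TGF-β-binding protein genes outside the 10 lay on opposite sides. *Ltbp4* was at 23.3 FPKM in control and 43.6 FPKM in mutant nerve (log2 ratio 0.90). *Ltbp2*, whose product is not known to bind latent TGF-β, was at 3.33 and 1.13 FPKM (log2 ratio −1.48).

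Downstream of the receptors, the Smads that carry the signal differed by less than the fold change of 1.5 on FPKM as deposited. *Smad2* was at 6.76 FPKM in control and 6.51 FPKM in mutant nerve, with overlapping intervals. *Smad3* was at 8.89 and 12 FPKM (log2 ratio 0.42) and *Smad4* at 13.7 and 15.4 FPKM (log2 ratio 0.17), both with intervals apart. The inhibitory *Smad6*, which acts mainly on BMP signals, was at 2.01 FPKM in control and 4.02 FPKM in mutant nerve (log2 ratio 0.96). Of these 4 Smad genes, 1 was lower by the fold change on the scale of all rows and none was higher. Of 7 further receptor and co-receptor genes, none passed the fold change on FPKM as deposited, and their log2 ratios ran from −0.18 to 0.21. On the scale of all rows, 3 of the 7 were lower by it, beside 52.1% of all genes tested. Among 9 negative regulators, 2 ubiquitin ligase genes were lower in the mutant by more than 1.5 on FPKM as deposited. These are 22.2%, beside 8.52% of all genes tested, and none of the 9 was higher by it. On the scale of all rows, 4 of the 9 were lower by it, beside 52.1% of all genes tested. *Nedd4l* was at 7.74 and 3.74 FPKM (log2 ratio −1.03) and *Smurf1* at 32.5 and 20.5 FPKM (log2 ratio −0.66). None of the 3 adaptors and co-factors tested passed the fold change on FPKM as deposited, and 2 of 4 secreted antagonists were higher by it. On the scale of all rows, 1 of the 3 adaptors and co-factors was lower by it, and none of the 4 antagonists passed it.

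Of 22 listed responders, 8 were higher in the mutant by a fold change above 1.5 and none was lower by that much, or 36.4% and 0% beside 15.4% and 8.52% of all genes tested. On the scale of all rows, 1 of the 22 was higher and 3 were lower, beside 4.51% and 52.1% of all genes tested. *Cdkn1a*, an inhibitor of the cell cycle, was at 10 FPKM in control and 22.2 FPKM in mutant nerve (log2 ratio 1.14). The genes of the transcription factors Slug and Snail were also higher. *Snai2* was at 4.32 and 9.60 FPKM (log2 ratio 1.13) and *Snai1* at 3.94 and 7.41 FPKM (log2 ratio 0.90). *Ctgf*, which encodes a matricellular protein, was at 51.7 and 80.7 FPKM (log2 ratio 0.64), and both values lay above their own interval (45.9 to 50.9 and 72.4 to 77.7). *Tagln*, a smooth muscle gene, is listed at 0 in the control and at 35.3 FPKM in the mutant, so no fold change is given for it. It is counted among the 8, and without it 15 of 61 pathway genes were higher by the fold change.

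**Figure D4:**
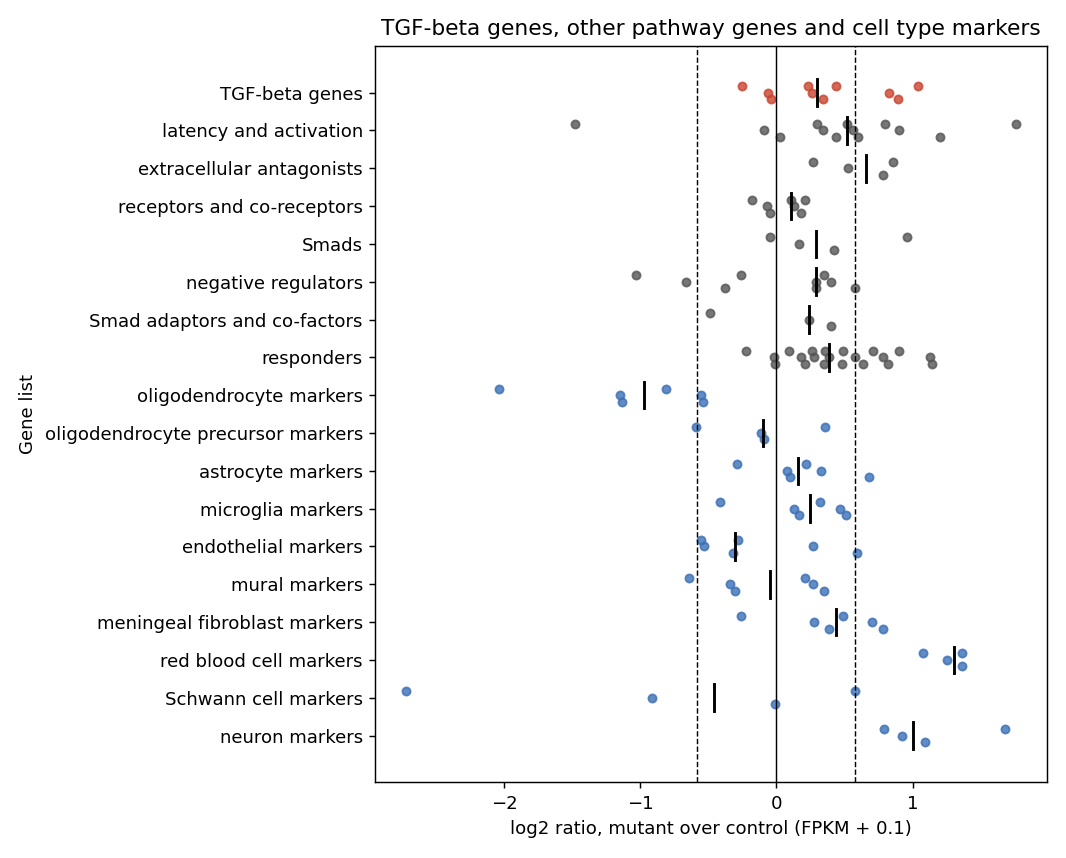
Log2 ratio of mutant to control FPKM (0.1 added, FPKM as deposited) for the 10 TGF-beta genes (red), the other pathway genes by role (grey) and the marker lists (blue). Each point is a gene, black bars are medians and dashed lines mark a fold change of 1.5. Tagln, listed at 0 in the control, and pathway genes under 1 FPKM are left out, while marker genes under 1 FPKM are drawn. The median is 0.30 for the TGF-beta genes, −0.97 for OL markers and 1.31 for red blood cell markers. On the scale of all rows, the medians of the TGF-beta and other pathway genes are below 0.

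Markers of other cell types also differed between the libraries on FPKM as deposited, the only scale given for them here. Across all genes tested, 15.4% were higher by a fold change above 1.5 and 8.52% lower. Nothing particular to a cell type is read from counts in lists this short. Meningeal fibroblast markers, 2 of 6 higher by a fold change above 1.5, summed to 802.8 FPKM in control and 1139.5 FPKM in mutant nerve, with log2 ratios from −0.26 to 0.78. All 4 red blood cell markers were higher by the fold change (log2 ratios 1.08 to 1.36). A pair of them, the α-globin genes, share the same rows and entered the sum of 133.1 and 333.7 FPKM once. Of the 4 neuronal markers, 3 reached 1 FPKM in a library and all 3 were higher by the fold change. The 4 summed to 7.86 and 16.0 FPKM, with log2 ratios from 0.79 to 1.68. Of the OL markers, 4 of 6 were lower by the fold change, with log2 ratios from −2.04 to −0.54, and of the OL precursor markers 1 of 4 (395.3 and 325.3 FPKM summed). Astrocyte markers, 1 of 6 higher, summed to 4882.3 and 5701.5 FPKM. None of 6 microglial markers passed the fold change (164.9 and 207.5 FPKM). Endothelial markers, 1 of 6 higher, summed to 124.3 and 108.6 FPKM, and mural markers, 1 of 6 lower, to 112.7 and 95.7 FPKM. Schwann cell markers were near the limit, at 3.13 and 1.89 FPKM summed, and the 1 marker of 4 that reached 1 FPKM was lower by the fold change. Of the other pathway genes, 4 are also on a marker list, and without them 15 of 58 were higher by the fold change and 3 lower. No marker was listed at 0 in either library. The part of these cell types in the values of the 10 genes was not tested.

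How the 2 libraries are scaled changed the values most. Under the median, 75th percentile, trimmed mean or sum of named rows, and under pseudocounts of 1 and 0.01, *Tgfbr3* had log2 ratios from 0.97 to 1.05, *Tgfb1* from 0.80 to 0.90 and *Ltbp3* from 0.76 to 0.83. On the scale of all rows these became 0.38, 0.22 and 0.16, below the fold change. *Tgfbr1*, *Tgfb2* and *Smad7* were then lower in the mutant by more than 1.5, at −0.90, −0.71 and −0.72. So were 52.1% of all genes tested, whose median was −0.61. Rows with no gene name took 70.7% of all FPKM in control and 80.7% in mutant nerve, and the highest of them spanned 50 and 62 bases. Across all genes tested, 64.4% of those past the fold change were higher in the mutant on FPKM as deposited, and 7.96% on the scale of all rows. The 10 genes spanned 1.29 log2 units on FPKM as deposited, from *Tgfbr1* to *Tgfbr3*.

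**Figure D5:**
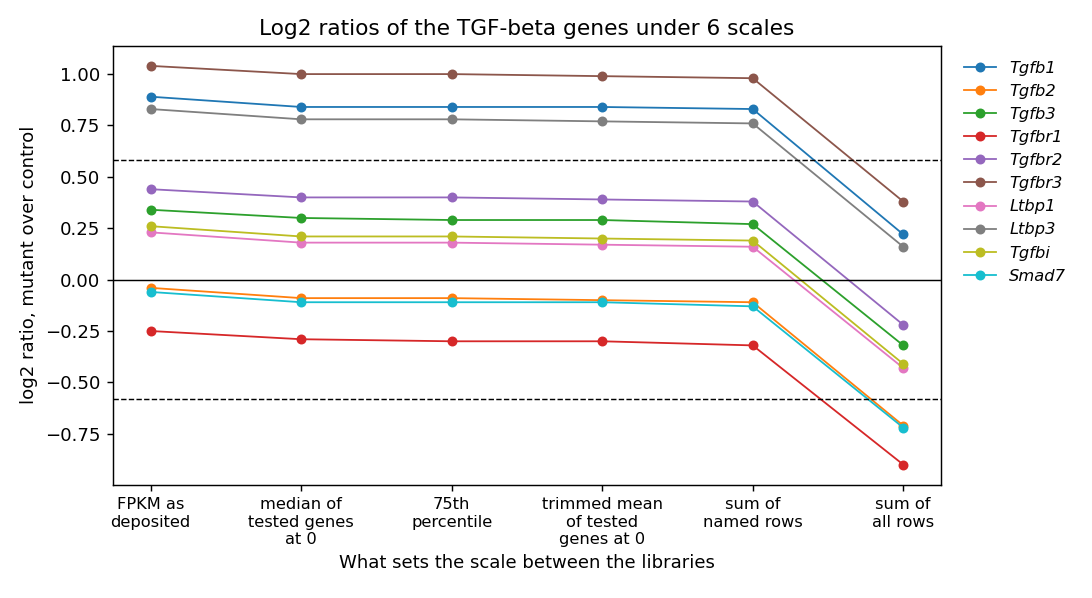
Log2 ratio of mutant to control for each of the 10 genes (coloured lines, to follow a gene) under 6 ways to set the scale between the libraries. Dashed lines mark a fold change of 1.5. Tgfbr3, Tgfb1 and Ltbp3 lie above the upper line on 5 scales and at 0.38, 0.22 and 0.16 when all rows are brought to the same sum, where the other 7 genes lie below 0.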

How the data were processed

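RNA from optic nerves was sequenced in 1 control and 1 mutant library. The authors aligned the reads with TopHat, its settings left at default, and the deposited FPKM values and intervals come from Cufflinks. The submitters' processing notes name mm9, and positions are given on it, with bases counted from 1. Software versions and annotation are not given in the sources used here. Comma-merged names were split, rows of a symbol were summed and symbols were joined over both tables. Genes with a status of OK in both and at least 1 FPKM in at least 1 library were tested against a fold change of 1.5, after 0.1 FPKM was added. No statistical test was run, since each genotype has 1 library. Depth is the number of fragments, searched in steps, at which interval bounds of unnamed rows under 100 bases came closest to whole fragments (90% within 0.00015 in the control and 0.00011 in the mutant). The counting was tested on simulated data, in which planted changes were larger than those of the 10 genes. It held no spread between animals and no difference in scale, so it does not bear on these. The 10 genes and all lists were chosen with earlier results of these data known. Pathway genes were named by a rule: up to 8 of the largest fold changes in each direction, with *Smad2*, *Smad3*, *Smad4* and *Ctgf*. Some genes under this rule and some neighbouring genes are not reported here. Neighbouring genes were named after their values were seen. Likeness of patterns was not computed over 2 libraries. Scripts ran in Python 3.11.15. Tables were handled in pandas 2.3.3 with numpy 2.4.6. Plots were drawn with matplotlib 3.10.9.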

Additional observations from a re-analysis of the deposited data

How the results depend on the processing

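With 14 other settings, 184 of 210 values stayed within their interval, 0.1 log2 units or 1.5 times the count. Some of these values were fixed in advance, since each of the 10 genes has 1 unmerged row per library and passes every minimum of FPKM tried. Most exceptions came from rescaling all rows to a sum of 1000000. It left 0 of the 10 genes higher by the fold change and 3 lower, with a median of −0.37, and *Tgfb3* at −0.32, *Tgfbr2* at −0.22, *Ltbp1* at −0.43 and *Tgfbi* at −0.41 changed sign. Of the other pathway genes, 2 were then higher and 15 lower (median −0.32), and of all genes tested 640 and 7398 (median −0.61). A fold change above 2 left 1 of the 10 genes (*Tgfbr3*), 5 other pathway genes and 975 genes overall higher, and 522 genes lower. A minimum of 5 FPKM in at least 1 library left 1290 genes higher. No paired analysis was possible because each genotype has 1 library, and none could be left out. Depth limited the genes with low FPKM.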
